A study of Drosophila melanogaster with 15 samples.

Results

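The *Obp56* and *Obp57* genes encode 10 odorant binding proteins of *Drosophila melanogaster* that lie in 2 groups on the right arm of chromosome 2. The members were taken by their FlyBase symbols from the 17490 genes of the count files. They are *Obp56a*, *Obp56c*, *Obp56d*, *Obp56e*, *Obp56g*, *Obp56h*, *Obp56i*, *Obp57a*, *Obp57b* and *Obp57c*, and all 10 symbols were found. Odorant binding proteins are small soluble proteins that support cells secrete into the fluid around the dendrites of olfactory and taste neurons. They bind hydrophobic ligands there, and the best studied member of the family, *lush*, takes part in the response of *Or67d* neurons to the male pheromone cis-vaccenyl acetate. Many family members arose by tandem duplication, and members of 1 cluster can be transcribed in quite different organs.

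RNA was sequenced from the third antennal segments of 7-day-old males, with 180 antennae in each sample. White-eyed w1118 males were kept either at 25 to 30 per vial (w1118 GH) or alone from the pupal stage on (w1118 SH). The 3 mutants were all group-housed. *Or47b1* males were homozygous for a mutation in *Or47b*, a receptor of pheromone-sensing neurons, and also carried 2 copies each of *Or47b-GAL4* and *UAS-mCD8GFP*. *Or67dGAL4* males were homozygous for an insertion of GAL4 in *Or67d*, the receptor for cis-vaccenyl acetate, together with homozygous *UAS-mCD8GFP*. In *fruLexA/fru4-40* males, which are *w+*, the male form of Fruitless, a transcription factor of these neurons, is lost. Each group had 3 samples in the comparisons except *fruLexA/fru4-40* with 2, and a further *fruLexA/fru4-40* library, replicate 1, whose label carries a QC warning, is given separately. The mutants and w1118 are different strains, so the mutation, the transgenes and the genetic background cannot be told apart. The study calls its samples biological replicates but does not say which cultures they came from, and p-values measure only the spread between these samples.

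Total counts ran from 8570425 to 14908299 over the 14 libraries, and 3 counts, the smallest signal taken as present in a library, corresponded to 0.201 to 0.35 CPM (counts scaled to a common library total). The labels were checked with the targeted genes. *Or47b* was at 0.688 to 1.06 CPM in *Or47b1* against 150.0 to 164.0 CPM in w1118 GH, and *Or67d* was at 0.0943 to 1.09 CPM in *Or67dGAL4* against 84.2 to 90.1 CPM, whereas the whole *fru* gene did not pass the test in *fruLexA/fru4-40* (log2 fold change −0.15, adjusted p = 0.44, edgeR's quasi-likelihood test). Counts over the whole *fru* gene cannot show the loss of its male form alone, so they do not check this label. The study reported lower use of the male-specific *fru* exon in this mutant. The tissue was checked with the olfactory co-receptor *Orco*, which lay between 1910.0 and 3190.0 CPM in the 14 libraries. Markers of other organs varied between libraries and are given beside the genes they touch.

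The *Obp56* members stretch over 171.0 kb of chromosome 2R in dm6, from 19697723 to 19868714, and 128 annotated genes lie in that interval, among them 2 other odorant binding protein genes. *Obp56a* (19697723 to 19698508, plus strand), *Obp56c* (19699995 to 19701124, minus strand) and *Obp56d* (19702924 to 19703915, minus strand) are close neighbours, with 1486 bases between the first pair and 1799 between the second. *Obp56e* (19712345 to 19712932, plus strand) follows 8429 bases on. *Obp56g*, *Obp56h* and *Obp56i* stand apart, each more than 30 kb from the preceding member. The *Obp57* members are packed far more tightly. *Obp57c* (20503584 to 20504202), *Obp57b* (20504251 to 20505136) and *Obp57a* (20505150 to 20505758) lie in that order on the plus strand within 2175 bases, with gaps of 48 and 13 bases between the annotated genes. *Or47b*, the gene mutated in *Or47b1*, is on the same chromosome arm 8.38 Mb from *Obp56a*.

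**Figure D1:**
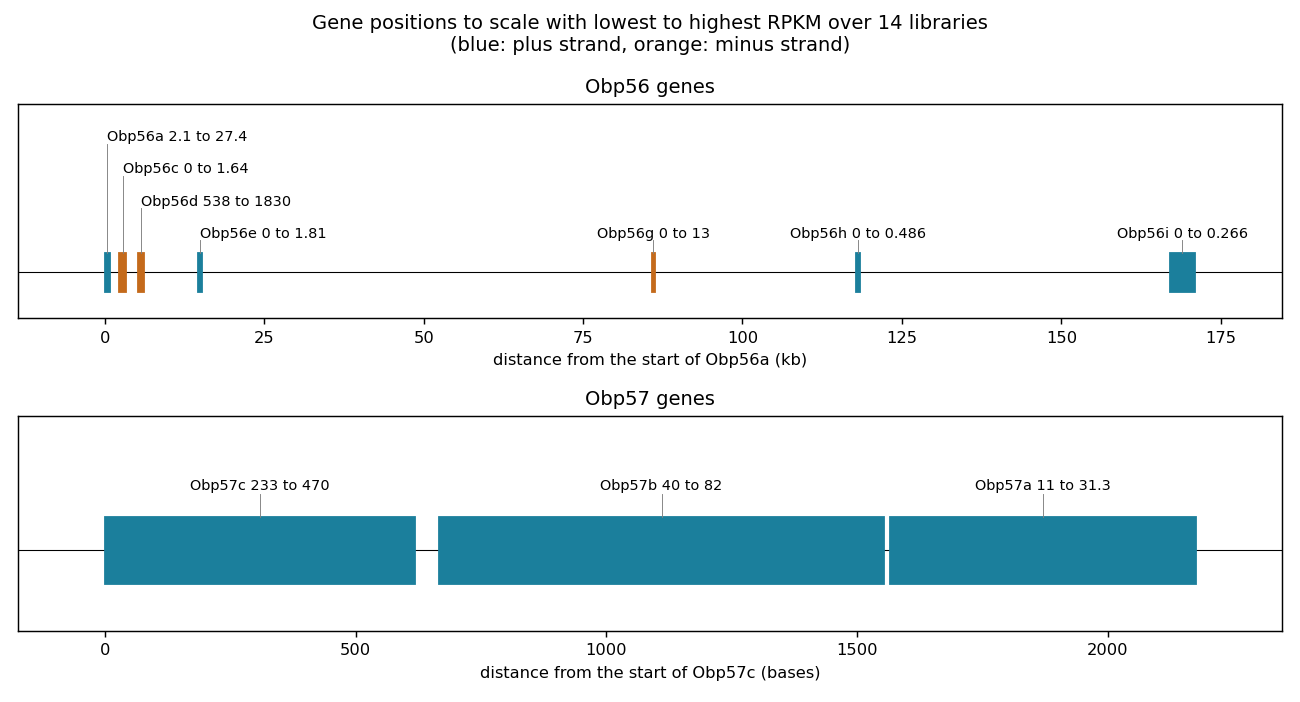
Positions of the 10 genes drawn to scale, as distance from the start of *Obp56a* in kb (top) and from the start of *Obp57c* in bases (bottom), coloured by strand. Beside each gene stand its lowest and highest RPKM over 14 libraries, and the neighbours *Obp56c* (0 to 1.64) and *Obp56d* (538 to 1830) are at the far ends of the range.

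The members differed widely in level. Levels are given as RPKM, the CPM after normalisation divided by the exon length in kilobases, which allows genes of different length to be compared. *Obp56d* had a mean of 907 RPKM over 14 libraries and ranked 8th of the 52 genes of the family, *Obp57c* had 327 RPKM and ranked 10th, and *Obp57b* had 62.8 RPKM and ranked 12th. *Obp57a* (18.7 RPKM), *Obp56a* (9.81 RPKM) and *Obp56g* (5.37 RPKM) were intermediate. The 4 remaining genes, all of the *Obp56* group, were at or below 0.615 RPKM. Tight linkage thus went with similar levels in neither group, since the neighbours *Obp56c* and *Obp56d* were at 0.615 and 907 RPKM.

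**Figure D2:**
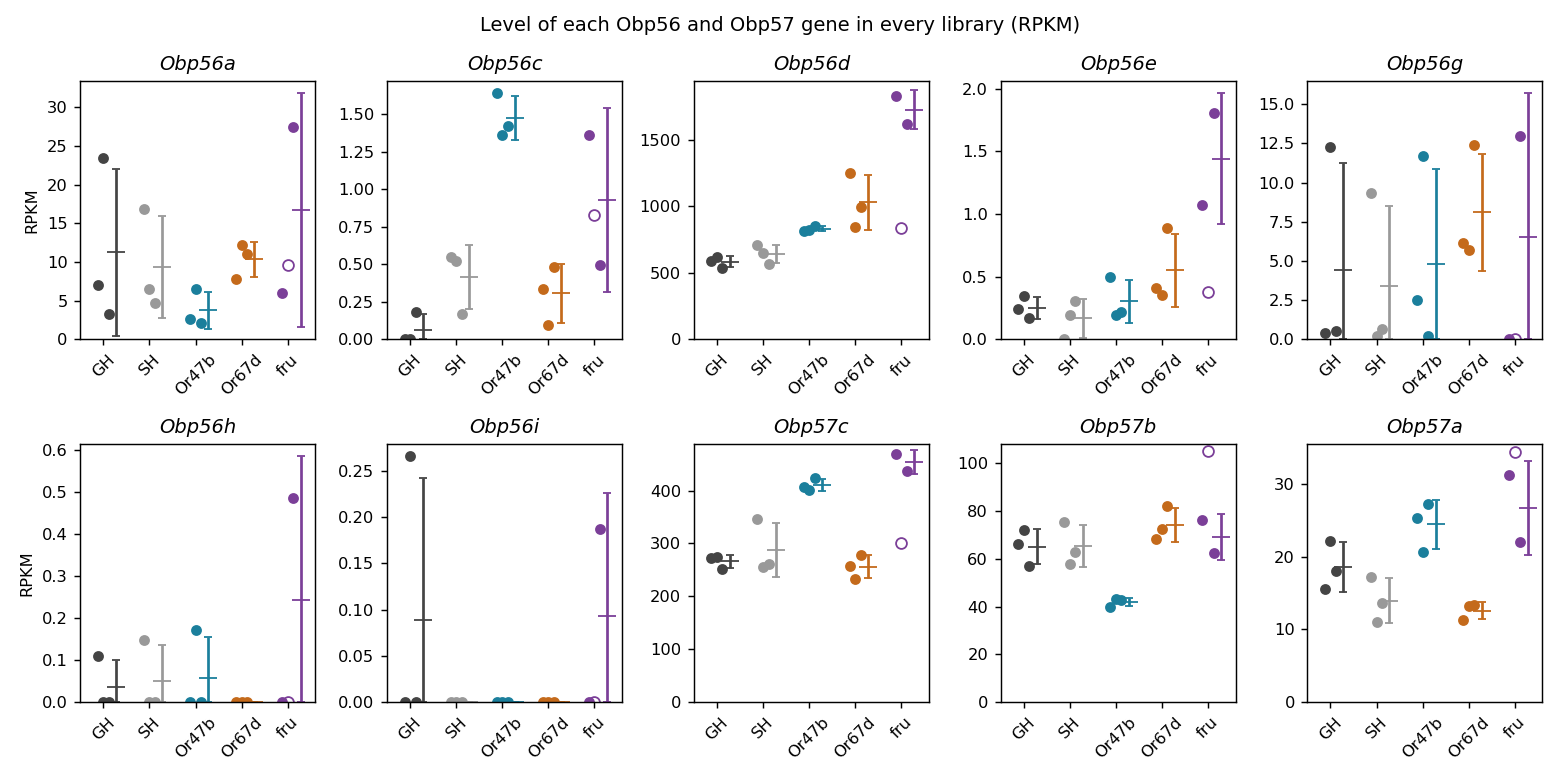
RPKM of each gene (y axis, 1 scale per gene) in every library of the 5 groups. Filled points are the 14 libraries of the comparisons, horizontal marks with bars are group means ± SD (cut off at 0), and open points are *fruLexA/fru4-40* replicate 1, as in *Obp57b*, where it lies at 105 RPKM above all other libraries.

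Of the 10 genes, 7 passed edgeR's filter on low counts and entered the test with 10358 genes in all. *Obp56e*, *Obp56h* and *Obp56i* did not pass. *Obp56c* passed only through the groups in which it was high, so it is counted below but lends no weight to a count. A gene was called when its adjusted p in edgeR's quasi-likelihood test was under 0.05.

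In single-housed w1118 males 0 of the 7 tested members were called, against 0.994% of all tested genes, and 1 of the 7, *Obp56c*, had an unadjusted p under 0.05 in edgeR's test, against 15.8% of all tested genes (DESeq2 also called 0). In *Or47b1* 4 of the 7 were called, against 20.4% of all tested genes. *Obp56c*, *Obp56d* and *Obp57c* were higher, as were 10.5% of all tested genes, and *Obp57b* was lower, as were 9.97%. In *Or67dGAL4* 1 of the 7, *Obp56d*, was called, where 29.5% of all tested genes were called, 14.4% as higher. In *fruLexA/fru4-40* 3 of the 7 were called, *Obp56c*, *Obp56d* and *Obp57c*, all higher, against 30.8% of all tested genes, 15.5% as higher. The median log2 fold change of the 7 genes was 0.01 for single housing (0.00 over all tested genes), 0.40 for *Or47b1* (−0.01), 0.19 for *Or67dGAL4* (−0.02) and 0.58 for *fruLexA/fru4-40* (0.04). These comparisons share the w1118 GH samples.

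**Figure D3:**
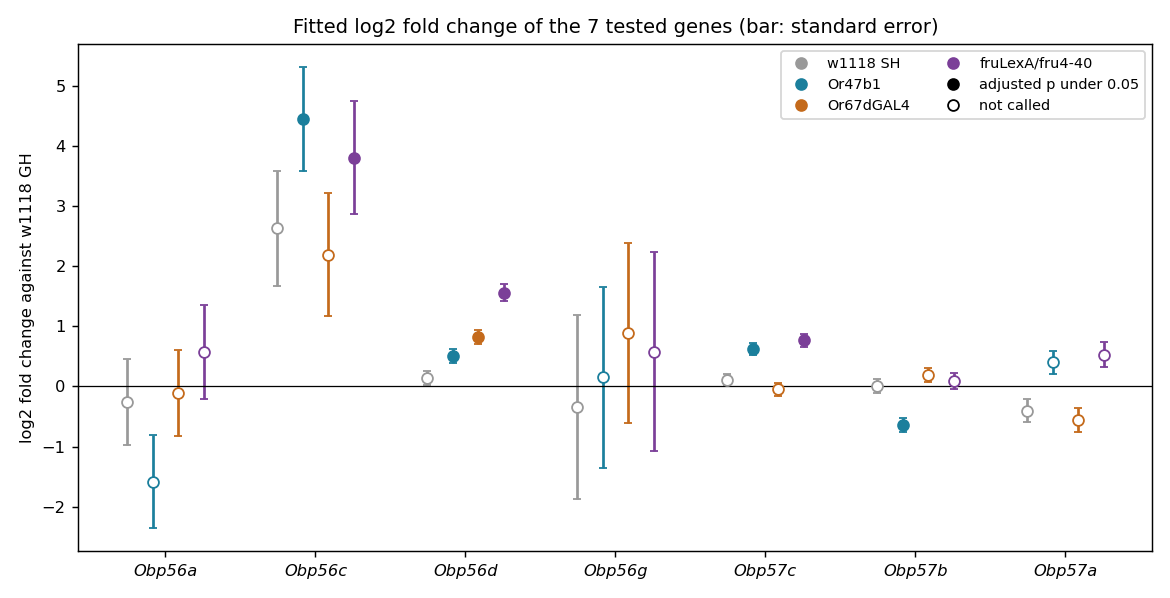
Fitted log2 fold change against w1118 GH (y axis) of the 7 tested genes in 4 groups, with standard errors as bars and filled points for an adjusted p under 0.05. *Obp56d* lies above 0 in all 3 mutants with filled points, *Obp57c* in *Or47b1* and *fruLexA/fru4-40* only, and *Obp57b* lies below 0 with a filled point in *Or47b1*. The fitted values of *Obp56c* rest on 2 counts in w1118 GH and are not bounds.

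*Obp56d* was the most abundant member and the one that rose in every mutant. It is among the odorant binding proteins that are transcribed in both olfactory and taste organs. Its level was 590, 621 and 538 RPKM in w1118 GH and 708, 646 and 569 RPKM in w1118 SH. In *Or47b1* it was 817, 822 and 852 RPKM, in *Or67dGAL4* 1250, 845 and 993 RPKM, and in *fruLexA/fru4-40* 1830 and 1620 RPKM. Every mutant library of the comparisons was above every w1118 GH library, and the single-housed libraries overlapped with the group-housed ones. The log2 fold change against w1118 GH was 0.51 ± 0.12 (SE) in *Or47b1* (adjusted p = 0.0097), 0.82 ± 0.12 in *Or67dGAL4* (adjusted p = 0.00031) and 1.56 ± 0.14 in *fruLexA/fru4-40* (adjusted p = 4.9e-06) by edgeR's quasi-likelihood test. The last value corresponds to a fold of 2.96.

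Among the mutants, *Obp56d* was higher in *fruLexA/fru4-40* than in *Or67dGAL4* (log2 fold change 0.74 ± 0.14, adjusted p = 0.002) and than in *Or47b1* (1.05 ± 0.13, adjusted p = 0.00013, edgeR's quasi-likelihood test), while *Or67dGAL4* and *Or47b1* did not pass the test (0.31 ± 0.12, adjusted p = 0.08). The last comparison did pass when *Or67dGAL4* replicate 2 was left out (adjusted p = 0.017, edgeR) and in DESeq2 (adjusted p = 0.043). With *fruLexA/fru4-40* replicate 1, which had 839 RPKM, in a fit of all 15 libraries, the calls in *Or47b1* against w1118 GH (adjusted p = 0.2) and in *fruLexA/fru4-40* against *Or67dGAL4* (adjusted p = 0.21, edgeR) were lost.

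In bulk tissue, fewer cells of a type and less RNA per cell cannot be told apart. All 5 markers of antennal olfactory support cells were detected above 3 counts in every library. Apart from *nompA* they are themselves odorant binding protein genes (*Obp28a*, *Obp83a*, *Obp83b* and *lush*). Their summed level was 8150 to 9150 CPM in w1118 GH and 9420 to 10600 CPM in w1118 SH. It was 11500 to 11800 CPM in *Or47b1*, 10600 to 13300 CPM in *Or67dGAL4* and 13200 to 13300 CPM in *fruLexA/fru4-40*. The sum was thus above w1118 GH in every mutant, like *Obp56d*. It was also above w1118 GH in w1118 SH, where *Obp56d* overlapped. The highest sums of *Or67dGAL4* and *fruLexA/fru4-40* were alike, but the lowest was 10600 CPM in *Or67dGAL4* and 13200 CPM in *fruLexA/fru4-40*. *Obp56d* was higher in *fruLexA/fru4-40* than in *Or67dGAL4* without overlap of the libraries compared. *lush*, 1 of the 5, rose in all 3 mutants, by 0.56, 0.80 and 0.74 on the log2 scale. *nompA*, which encodes a protein of the cap that support cells build over mechanosensory dendrites, was lower in *Or47b1* (−1.04) and higher in *fruLexA/fru4-40* (2.04). The summed level of the 7 markers of olfactory neurons was 3680 to 3820 CPM in w1118 GH and 4060 to 4320 CPM in w1118 SH, against 3280 to 3740 CPM in *Or47b1*, 2750 to 3250 CPM in *Or67dGAL4* and 2610 to 2850 CPM in *fruLexA/fru4-40*. These 7 include *Or47b* and *Or67d*, whose loss in their own mutants lowers the sum by itself. *Orco* alone changed by 0.04 in *Or47b1* (adjusted p = 0.81) on the log2 scale. Its change was −0.23 in *Or67dGAL4* (adjusted p = 0.036) and −0.42 in *fruLexA/fru4-40* (adjusted p = 0.0032, edgeR's quasi-likelihood test). The part of these markers in the levels of the members was not tested.

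The other odorant binding protein genes give a measure of how common such changes were in the family. Of 42 further genes 24 were tested, and 14 were called in *Or47b1* (11 higher), 9 in *Or67dGAL4* (8 higher), 13 in *fruLexA/fru4-40* (12 higher) and 1 in w1118 SH. These are 58.3% of the tested family members in *Or47b1* (20.4% of all tested genes) and 37.5% in *Or67dGAL4* (29.5%). In *fruLexA/fru4-40* they are 54.2% (30.8%) and in w1118 SH 4.17% (0.994%). The median log2 fold change of the 24 was 0.45, 0.26, 0.59 and 0.19, in that order. Over all tested genes it was −0.01, −0.02, 0.04 and 0.00. The counts include a gene called higher in all 3 mutants with no w1118 GH library above 3 counts, given in the closing section. They also include a gene called lower in *Or47b1* with no *Or47b1* library above 3 counts. Such genes passed the filter only through the groups in which they were high and lend no weight to a count. The other called genes were mostly higher in the mutants as well, so higher levels were not limited to the *Obp56* and *Obp57* genes.

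*Obp56c*, the neighbour of *Obp56d*, was barely detected in w1118 and was clearly present in *Or47b1*. It had 0, 0 and 2 counts in the w1118 GH libraries, 6, 5 and 2 in w1118 SH, and 3, 1 and 4 in *Or67dGAL4*. In *Or47b1* it had 18, 13 and 12 counts, and in *fruLexA/fru4-40* 14 and 5. The 3 *Or47b1* libraries were within a narrow range, 1.36 to 1.64 RPKM, and above all w1118 libraries. Against the floor of 3 counts per library, the mean of *Obp56c* was at least 5.23-fold higher in *Or47b1* than in w1118 GH. The mean in *fruLexA/fru4-40* was at least 3.30-fold higher, but it rests mostly on replicate 2, with 14 counts against 5 in replicate 3. Because the gene entered the test only through these high groups, its calls are given as a description and lend no support to the difference.

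The calls for *Obp56c* also rest on few counts. Against w1118 SH, from which 28.4% of all tested genes differed in *Or47b1* and 34.0% in *fruLexA/fru4-40*, the adjusted p was 0.058 and 0.25 in these mutants, and without *fruLexA/fru4-40* replicate 2 the call in that mutant was lost (adjusted p = 0.18, edgeR). Without w1118 GH replicate 3, the only library of its group with counts, *Or67dGAL4* was called as well (adjusted p = 0.03). The *Or67dGAL4* libraries, with 1 to 4 counts near the floor, were all below the *Or47b1* libraries, but the call between these mutants was lost in 7 of the 14 fits that left out 1 library, namely each *Or47b1* library, *Or67dGAL4* replicates 1 and 2 and both *fruLexA/fru4-40* libraries (highest adjusted p = 0.12). Eye markers, 7 genes, summed to 7.53 to 10.5 CPM in w1118 GH and 12.3 to 89.7 CPM in *Or47b1*, with the highest value in replicate 3, where *Obp56c* was not the highest. The part of eye tissue in the level of *Obp56c* was not tested.

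*Obp57c*, the most abundant of the 3 adjacent genes, rose in *Or47b1* and *fruLexA/fru4-40* but not in *Or67dGAL4*. Its level was 272, 274 and 252 RPKM in w1118 GH and 347, 256 and 262 RPKM in w1118 SH. It was 407, 402 and 424 RPKM in *Or47b1*, 258, 233 and 278 RPKM in *Or67dGAL4*, and 470 and 438 RPKM in *fruLexA/fru4-40*. The *Or47b1* and *fruLexA/fru4-40* libraries were all at 402 RPKM or more, and the highest of the others was at 347 RPKM. The log2 fold change was 0.63 ± 0.10 (adjusted p = 0.00076) in *Or47b1*, 0.77 ± 0.11 (adjusted p = 0.00038) in *fruLexA/fru4-40* and −0.05 ± 0.10 (adjusted p = 0.73) in *Or67dGAL4* (edgeR's quasi-likelihood test). The difference between the mutants passed the test itself, as *Obp57c* was lower in *Or67dGAL4* than in *Or47b1* (−0.68 ± 0.10, adjusted p = 0.00041) and higher in *fruLexA/fru4-40* than in *Or67dGAL4* (0.82 ± 0.11, adjusted p = 0.00031). The 7 taste organ markers, of which 3 were above 3 counts in every library, are given only as a sum. Their summed level was 51.2 to 55.9 CPM in w1118 GH and 50.1 to 53.9 CPM in w1118 SH. It was 76.1 to 83.8 CPM in *Or47b1*, 65.4 to 68.6 CPM in *fruLexA/fru4-40* and 43.5 to 49.9 CPM in *Or67dGAL4*. The sum of these markers, like *Obp57c*, was thus higher in *Or47b1* and *fruLexA/fru4-40*. Which of the 7 genes carried the sum was not examined. The sum was highest in *Or47b1*, whereas *Obp57c* was highest in *fruLexA/fru4-40*. The part of taste organ tissue in the level of *Obp57c* was not tested.

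*Obp57b*, which begins 48 bases after *Obp57c*, fell in *Or47b1*. Its level was 66.2, 72.0 and 57.2 RPKM in w1118 GH, 75.3, 57.9 and 63.0 RPKM in w1118 SH, and 40.0, 43.2 and 42.6 RPKM in *Or47b1*. It was 68.2, 72.4 and 82.0 RPKM in *Or67dGAL4* and 76.1 and 62.5 RPKM in *fruLexA/fru4-40*. The *Or47b1* libraries were below all other libraries, and the 4 remaining groups overlapped. The log2 fold change in *Or47b1* against w1118 GH was −0.64 ± 0.12 (adjusted p = 0.0017), and *Obp57b* was higher in *Or67dGAL4* (0.82 ± 0.12, adjusted p = 0.00024) and in *fruLexA/fru4-40* (0.72 ± 0.13, adjusted p = 0.0013) than in *Or47b1* (edgeR's quasi-likelihood test). These 3 calls were kept in every fit that left out 1 library. In *Or67dGAL4* and *fruLexA/fru4-40* the log2 fold change against w1118 GH was 0.19 ± 0.11 and 0.09 ± 0.13, and neither passed the test.

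*Obp57a*, which begins 13 bases after *Obp57b*, was the least abundant of the 3. It had 15.5, 22.2 and 18.1 RPKM in w1118 GH, 17.2, 11.0 and 13.7 RPKM in w1118 SH, 25.4, 20.7 and 27.3 RPKM in *Or47b1*, 11.3, 13.2 and 13.3 RPKM in *Or67dGAL4*, and 31.3 and 22.1 RPKM in *fruLexA/fru4-40*. The *Or67dGAL4* libraries were below all w1118 GH libraries, while *Or47b1* and *fruLexA/fru4-40* overlapped with them. No comparison with w1118 GH passed the test, with log2 fold changes of 0.40 ± 0.19 in *Or47b1* (adjusted p = 0.16), −0.55 ± 0.20 in *Or67dGAL4* (adjusted p = 0.051) and 0.53 ± 0.21 in *fruLexA/fru4-40* (adjusted p = 0.072) by edgeR's quasi-likelihood test. Between the mutants, *Obp57a* was lower in *Or67dGAL4* than in *Or47b1* (−0.96 ± 0.20, adjusted p = 0.0033) and higher in *fruLexA/fru4-40* than in *Or67dGAL4* (1.08 ± 0.21, adjusted p = 0.0037). Against w1118 SH the increases in *Or47b1* (adjusted p = 0.0075) and *fruLexA/fru4-40* (adjusted p = 0.0049) passed, and the call of *fruLexA/fru4-40* against *Or67dGAL4* was lost without *fruLexA/fru4-40* replicate 2 (adjusted p = 0.071, edgeR). The decrease in *Or67dGAL4* against w1118 GH was called without w1118 GH replicate 1, w1118 SH replicate 1 or w1118 SH replicate 2, and the increase in *fruLexA/fru4-40* without w1118 GH replicate 2 or *fruLexA/fru4-40* replicate 3 (lowest adjusted p = 0.04 and 0.035, edgeR).

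The balance among the 3 adjacent genes can be read within each library, where depth and normalisation cancel. The ratio of *Obp57b* to *Obp57c* per kb was 0.243, 0.262 and 0.227 in w1118 GH and 0.217, 0.226 and 0.241 in w1118 SH. It was 0.0981, 0.108 and 0.101 in *Or47b1*, 0.264, 0.310 and 0.295 in *Or67dGAL4*, and 0.162 and 0.143 in *fruLexA/fru4-40*. Each mutant was separated from w1118 GH, *Or47b1* and *fruLexA/fru4-40* below it and *Or67dGAL4* above it. The mean was 0.102 ± 0.00493 (SD, n = 3) in *Or47b1* against 0.244 ± 0.0177 in w1118 GH, with a two-sided exact permutation p = 0.1, which is the smallest that 3 against 3 libraries can give. For *fruLexA/fru4-40* (0.152 ± 0.0137, n = 2) the exact permutation p was 0.2, also the smallest its size can give. The ratio of *Obp57a* to *Obp57c* was below w1118 GH in every library of w1118 SH (0.0429 to 0.0525) and *Or67dGAL4* (0.0439 to 0.0565), with an exact permutation p = 0.1 for each. It overlapped between w1118 GH (0.0569 to 0.081) and both *Or47b1* (0.0516 to 0.0645) and *fruLexA/fru4-40* (0.0503 to 0.0668). The ratio of *Obp57b* to *Obp57a* separated all 4 groups from w1118 GH (3.17 to 4.28). It was higher in w1118 SH (4.39 to 5.28) and *Or67dGAL4* (5.49 to 6.17) and lower in *Or47b1* (1.56 to 2.09) and *fruLexA/fru4-40* (2.43 to 2.83), each at the smallest p its size allows. In *fruLexA/fru4-40* replicate 1, the library with the QC warning, *Obp57b* to *Obp57c* stood at 0.350 and *Obp57a* to *Obp57c* at 0.115, above all 14 other libraries in both ratios. A ratio within a library shows unequal change between 2 genes and does not say which of them changed.

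**Figure D4:**
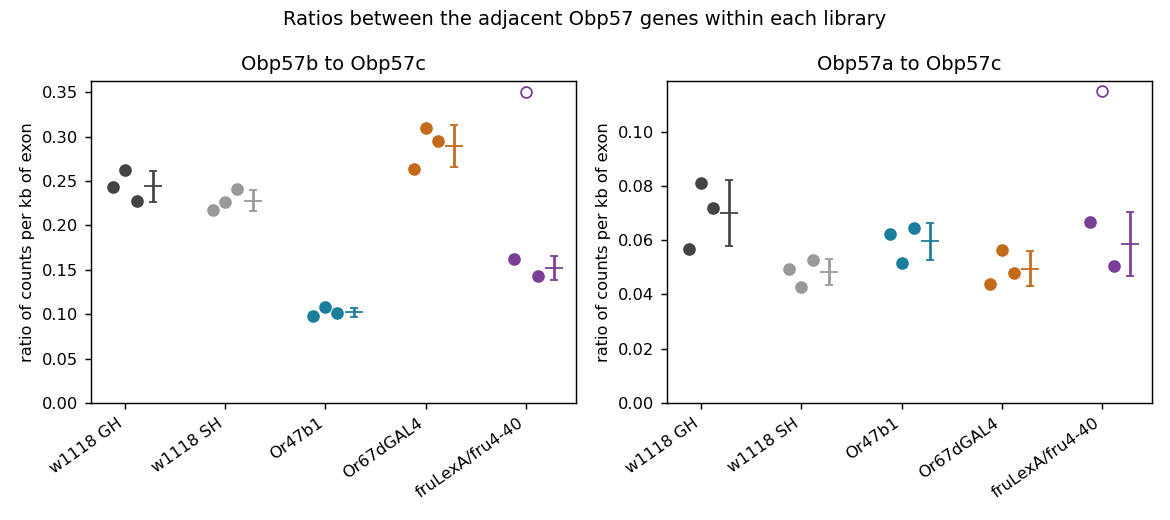
Ratio of *Obp57b* to *Obp57c* (left) and of *Obp57a* to *Obp57c* (right), in counts per kb of exon (y axis), in each library of the 5 groups, with group means ± SD. The ratio of *Obp57b* to *Obp57c* in *Or47b1* (0.0981 to 0.108) is below all other libraries, and the open points, *fruLexA/fru4-40* replicate 1, are above all others.

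*Obp56g* encodes a protein known from the male reproductive tract, where it is needed for the mating plug. In the antennal samples it varied mostly between libraries of the same group. It was at 0.393, 12.3 and 0.541 RPKM in w1118 GH, at 9.31, 0.206 and 0.659 RPKM in w1118 SH, and at 2.51, 11.7 and 0.232 RPKM in *Or47b1*. In *Or67dGAL4* it was at 6.16, 5.72 and 12.4 RPKM, and in *fruLexA/fru4-40* at 0 and 13.0 RPKM. A single library of each of the other 4 groups held most of the signal, with 67 of the 73 counts in w1118 GH in replicate 2, whereas in *Or67dGAL4* all 3 libraries had at least 28 counts. All groups overlapped and no comparison was called, with standard errors of the log2 fold change between 1.49 and 1.65.

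*Obp56a* followed *Obp56g* in part. It was at 7.00, 23.5 and 3.26 RPKM in w1118 GH, at 16.9, 6.53 and 4.63 RPKM in w1118 SH, at 2.59, 6.49 and 2.10 RPKM in *Or47b1*, at 7.77, 12.2 and 11.0 RPKM in *Or67dGAL4*, and at 6.05 and 27.4 RPKM in *fruLexA/fru4-40*. The highest library was the same for both genes in 4 of 5 groups. It was the same for *Obp57b* and *Obp56g* in 4 of 5 groups as well, although the w1118 GH libraries differed only 1.26-fold in *Obp57b*, against 7.20-fold in *Obp56a* and 31.4-fold in *Obp56g*. No comparison of *Obp56a* was called either, and its log2 fold change in *Or47b1* was −1.58 ± 0.77 (adjusted p = 0.18, edgeR's quasi-likelihood test), which moved to −0.48 without w1118 GH replicate 2.

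**Figure D5:**
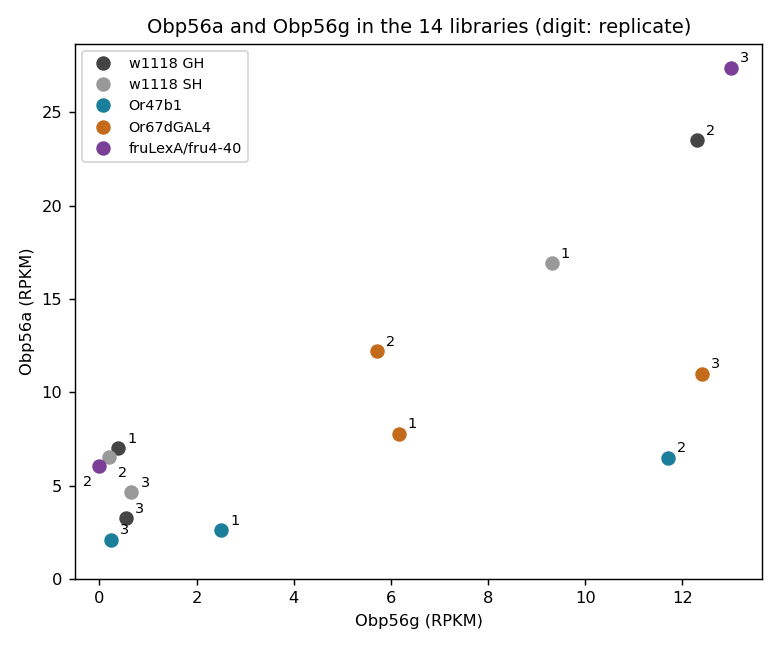
RPKM of *Obp56g* (x axis) and *Obp56a* (y axis) in the 14 libraries, coloured by group, with the replicate number beside each point. The points highest on both axes come from *fruLexA/fru4-40* replicate 3 (13.0 and 27.4 RPKM) and w1118 GH replicate 2 (12.3 and 23.5 RPKM), and libraries of 1 group lie far apart.

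Over all tested genes, 0.772% had their highest library in common with *Obp56g* in all 5 groups and 6.73% in at least 4. Among the 24 other tested family members these were *Obp19b* (5 groups) and *Obp49a* (4 groups). *CheA87a*, which was chosen after its values were seen, also had 17.6 RPKM in w1118 GH replicate 2 against 0.706 and 0.694 in the others, and 46.2 RPKM in *fruLexA/fru4-40* replicate 3 against 0.441. Of the lists of markers of other organs, none had its highest summed level in the same library as *Obp56g* in all 5 groups. The list of the ejaculatory bulb, ejaculatory duct and accessory gland did so in 4, but 1 of its 10 genes found, *Est-6*, was the only one above 3 counts in every library and made up nearly all of its sum of 1620 to 2660 CPM. The muscle, fat body, eye and hemocyte lists did so in 3 groups each, with muscle markers at 416 CPM in w1118 GH replicate 2 against a lowest value of 45.5 CPM in that group. The part of these tissues in *Obp56a* and *Obp56g* was not tested.

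*Obp56e* was at or near the floor except in *fruLexA/fru4-40*. It had 0 to 4 counts in each of the 12 libraries of the other groups, and 6 and 10 counts in *fruLexA/fru4-40*. Against 3 counts per library the mean in *fruLexA/fru4-40* was at least 2.80-fold higher than in w1118 GH. The gene did not enter the test, *fruLexA/fru4-40* replicate 1 had 1 count, and its exons overlap *asRNA:CR44509* on the annotation, from which reads of unstranded libraries cannot be told apart. *Obp56h*, whose knockdown alters the mating behaviour of males, was at 0 in 10 of 14 libraries and never above 3 counts. *Obp56i* was at 0 in 12 of 14 libraries and never above 3 counts. These 2 genes were not detectable at this depth, which does not show that they are absent from the antenna.

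Ordering the groups by mean level gave a different order for each of the 4 most abundant members, though not every step passed the test. The orders of *Obp57c* and *Obp57a* differed only in the places of the housing groups. These groups did not pass the test for either gene (adjusted p = 0.65 and 0.34, edgeR). *Obp56d* was highest in *fruLexA/fru4-40* (1720 ± 149 RPKM, SD, n = 2), followed by *Or67dGAL4* (1030 ± 205, n = 3), *Or47b1* (830 ± 18.7), w1118 SH (641 ± 69.6) and w1118 GH (583 ± 41.8). Of the neighbours in this order, *Or67dGAL4* and *Or47b1* did not pass the test, nor did the housing groups (adjusted p = 0.64, edgeR), whereas *Or47b1* and w1118 SH did (adjusted p = 0.038, edgeR). *Obp57c* had *fruLexA/fru4-40* (454 ± 22.1) and *Or47b1* (411 ± 11.4) on top, which did not pass the test (adjusted p = 0.37, edgeR), and w1118 SH (288 ± 50.9), w1118 GH (266 ± 12.2) and *Or67dGAL4* (256 ± 22.2) below. For *Obp57b* only the lowest group, *Or47b1* (41.9 ± 1.74), stood apart from its neighbour, w1118 GH (65.1 ± 7.41). For *Obp57a* no neighbours in the order passed the test, from *fruLexA/fru4-40* (26.7 ± 6.57) through *Or47b1* (24.5 ± 3.41), w1118 GH (18.6 ± 3.40) and w1118 SH (11.0 to 17.2) to *Or67dGAL4* (12.6 ± 1.11), although the ends did.

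The direct comparisons of the mutants used the same fit. Between *Or67dGAL4* and *Or47b1* 4 of the 7 tested members were called, against 26.8% of all tested genes, with *Obp57b* higher (13.0% of all tested genes) and *Obp56c*, *Obp57a* and *Obp57c* lower (13.8%) in *Or67dGAL4*. In *fruLexA/fru4-40* against *Or47b1* 2 of the 7 were called, both higher (*Obp56d* and *Obp57b*), against 31.6% of all tested genes, 16.2% as higher. In *fruLexA/fru4-40* against *Or67dGAL4* 3 of the 7 were called, all higher (*Obp56d*, *Obp57a* and *Obp57c*), against 24.2% of all tested genes, 13.1% as higher. All 3 genes of the *Obp57* cluster thus differed between the 2 receptor mutants, and *Obp57b* did so in the opposite direction to its 2 neighbours.

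Genes beside the clusters were counted in the same way. Of 187 other genes within 100 kb of a member, 23 were tested, and 8 were called in *Or47b1* (7 of them lower), 8 in *Or67dGAL4* (5 lower), 6 in *fruLexA/fru4-40* (5 lower) and 1 in w1118 SH. These are 34.8% of the tested neighbours in *Or47b1* (20.4% of all tested genes), 34.8% in *Or67dGAL4* (29.5%) and 26.1% in *fruLexA/fru4-40* (30.8%). Their median log2 fold change was −0.16, −0.15, −0.05 and −0.02, in that order. Those with a log2 fold change of at least 1 in size were *CG30151* (−1.76), *CG30447* (−1.86), *GNBP-like3* and *CG42691* in *Or47b1*, the last pair lower and with no *Or47b1* library above the floor, so that no fold is given, *lncRNA:CR44646* (1.96), *Bbd* (−1.14) and *lms* (−2.05) in *Or67dGAL4*, and *CG30154* (1.55), *lms* (−1.14) and *Nnf1a* (−1.16) in *fruLexA/fru4-40*. The nearest of these, *lncRNA:CR44646*, lies 2.74 kb from *Obp57a*.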

How the data were processed

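The authors processed reads of polyA-selected, unstranded libraries with FASTP, MapSplice2 (genome dm6) and a removal of duplicates, kept well-mapped and properly paired reads and counted reads per gene with featureCounts. The deposited values are these whole-number counts, without normalization, with the exon length of each gene. Versions and the annotation release are not given in the sources used here.

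Samples were grouped by their labels. The 14 libraries of 5 groups entered 1 fit with edgeR 4.0.16 (R 4.3.3) with TMM normalization (factors 0.965 to 1.03), filterByExpr and the quasi-likelihood test, which left 10358 genes (common biological coefficient of variation 0.151). *fruLexA/fru4-40* replicate 1, with 5907543 counts, entered only the fit of all 15 libraries. The Benjamini-Hochberg adjustment ran over all tested genes within each of 7 comparisons, with a threshold of 0.05. The standard error of a log2 fold change is its size over the square root of the F statistic. RPKM was computed from TMM-normalised counts on the tested genes and the exon length. The floor was 3 counts per library, and a lower bound of a fold is the mean CPM of the higher group over 3 counts in the smallest library of the lower group. Floors cover counting error only. Ratios within libraries were compared by two-sided exact permutation tests. Tables and figures came from Python 3.11.15 (scipy 1.17.1, pandas 2.3.3, matplotlib 3.10.9, numpy 2.4.6), and the fit was tested on simulated data.

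The members and lists were chosen with earlier results of these data known. All members are named. Other family members are named where they share the highest library with *Obp56g*, or in the closing section where they were among the 3 largest increases or decreases of a mutant comparison, neighbours within 100 kb if called with a log2 fold change of at least 1 in size, and, for the 3 members whose group means differed most, the 3 genes with the most similar fold changes. The marker lists covered olfactory neurons, support cells, male reproductive organs, maxillary palp, taste organs, Johnston organ, eye, fat body, muscle and hemocytes. *PebII* and *PebIII* were not matched by name. Replicates of a group differed beyond sampling noise. The alternatives were DESeq2 1.42.0, a fit of the compared groups alone, size factors by RLE or by the library total, no filter or a minimum of 10 counts in every sample, a stricter threshold of 0.01, a block for the replicate number, a fit of all 15 samples, w1118 SH as the reference, and leaving out each sample in turn. Protein and genome sequences were not used here, so reads shared between similar members were not examined.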

Additional observations from a re-analysis of the deposited data

Results flagged for a closer look

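*fruLexA/fru4-40* replicate 1, which entered none of the comparisons above, had 5 of the members with more than 3 counts in it above the highest w1118 GH library when all 15 libraries were normalised together. *Obp56e*, with 1 count, was left out of this comparison. *Obp56d* was at 839 RPKM against a highest w1118 GH value of 615, and *Obp57c* at 301 RPKM against 274. *Obp57b* was at 105 RPKM against 71.4 and *Obp57a* at 34.4 RPKM against 22.0. *Obp56c* was at 0.832 RPKM against 0.182, from 4 counts. For *Obp56d* and *Obp57c* the library was below replicates 2 and 3 of its group, and for *Obp57b* and *Obp57a* it was above them. Its summed level of olfactory neuron markers was 1680 CPM, below all 14 other libraries (2610 to 4320 CPM), and that of eye markers 58.8 CPM.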

How the results depend on the processing

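Of 378 values of the 17 called differences under the alternatives, 364 stayed called with the same sign, 14 lost the call and 0 changed sign. Many of these values come from fits that left out a library of a group not compared. There the fold change hardly moved, so the values are not separate checks. The number of members called in *Or67dGAL4* against w1118 GH was 1, and 2 with total counts only or with no filter on low counts, where *Obp57a* was also called (adjusted p = 0.039 and 0.043, edgeR). Leaving out 1 library gave 1 to 2 there, 4 in *Or47b1*, 2 to 4 in *fruLexA/fru4-40* and 0 in w1118 SH, and 3 to 4, 2 to 3 and 2 to 3 in the mutant comparisons (*Or67dGAL4* against *Or47b1*, *fruLexA/fru4-40* against *Or47b1* and against *Or67dGAL4*). With all 15 samples *Obp57a* was called in *fruLexA/fru4-40* (adjusted p = 0.041, edgeR).

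Changes of sign occurred only in differences that were not called. Against w1118 GH, *Obp57b* in w1118 SH came to −0.01 with total counts only and with at least 10 counts in every sample, *Obp56a* in *Or67dGAL4* to 0.15 and *Obp56c* to −0.44 with w1118 SH as the reference. With all 15 samples *Obp57c* in *fruLexA/fru4-40* against *Or47b1* came to −0.05 and *Obp57b* against *Or67dGAL4* to 0.13. Leaving out 1 library, the log2 fold changes that changed sign ran in w1118 SH from −1.01 to 0.83 (*Obp56a*), −3.20 to 2.84 (*Obp56g*), −0.04 to 0.19 (*Obp57c*) and −0.11 to 0.09 (*Obp57b*), in *Or47b1* from −1.58 to 3.34 (*Obp56g*), in *Or67dGAL4* from −0.54 to 0.98 (*Obp56a*) and −0.09 to 0.01 (*Obp57c*), and in *fruLexA/fru4-40* from −0.88 to 1.68 (*Obp56a*), −7.52 to 3.76 (*Obp56g*) and −0.05 to 0.22 (*Obp57b*). Between mutants they ran from −0.15 to 0.34 (*Obp57a*, *fruLexA/fru4-40* against *Or47b1*) and −0.26 to 0.01 (*Obp57b*, against *Or67dGAL4*). The cause was not tested.

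Over all tested genes the replicate numbers showed no common pairing. Deviations of same-numbered samples correlated with r from −0.35 to 0.36 (mean 0.04, 26 pairs), against a mean of −0.02 for other numbers. A mean over all genes cannot exclude a shared batch. The eye and muscle sums were highest in replicate 3 in w1118 SH and the 3 mutants, and in replicate 2 in w1118 GH. Whether same-numbered samples shared a batch was not tested. Under a replicate block the members called stayed at 0, 4, 1 and 3 against w1118 GH and at 4, 2 and 3 between mutants, and the uncalled *Obp56a* in *Or67dGAL4* changed sign to 0.02. With total counts only, the share of higher genes among all called in *Or47b1* was 40.0% against 51.2%. Groups of 3 and 2 libraries, few counts for *Obp56c*, and strain differences limit these comparisons.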

Other observations

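For the 3 members whose group means differed most, genes with similar log2 fold changes against w1118 GH were sought over the 4 comparisons, by the root mean square difference. For *Obp56c* these were *Arr2* (0.47), *trpl* (0.83) and *AttA* (0.84). *Arr2*, a photoreceptor arrestin, reached 21.8 RPKM in *Or47b1* replicate 3 against 0.115 and 0.131 RPKM in the other 2 libraries, while *Obp56c* had 18, 13 and 12 counts in the same 3 libraries, so similar fold changes came from different spreads over libraries. For *Obp56g* they were *CG3045* (0.09), *CG42354* (0.11) and *myo* (0.12), and for *Obp56a* *lncRNA:CR45994* (0.06), *spz3* (0.24) and *Lgr1* (0.24). No fold change of *Obp56g* or *Obp56a* was called, with standard errors of 1.49 to 1.65 and of 0.71 to 0.78. The fold changes of *Obp56c* rest on 2 counts in w1118 GH. These matches are therefore a description only.

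Of the other odorant binding protein genes, those called with the largest increases and decreases in each mutant against w1118 GH were as follows, on the log2 scale and by edgeR's quasi-likelihood test. In *Or47b1*, *Obp99d* (2.35) and *Obp58b* (0.99) were higher and *Obp84a* (−1.53) and *Obp8a* (−0.90) were lower. In *Or67dGAL4*, *Obp83ef* (6.61) and *Obp83cd* (4.91) were higher and *Obp8a* (−0.97) was lower. In *fruLexA/fru4-40*, *Obp99b* (2.73) and *Obp99c* (2.07) were higher and *Obp8a* (−0.68) was lower. *Obp83g* was called higher in all 3 mutants and *Obp99a* lower in *Or47b1*, each with no library of the lower group above 3 counts, so no fold is given.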
